A study of Gallus gallus with 4 samples.

Results

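Mitosis and kinetochore genes were examined in granulosa cells of the hen ovary, as a set of 50 named genes. They are the genes that drive a cell into mitosis, attach its chromosomes to the spindle, hold back anaphase until all chromosomes are attached, and divide the cell. Members were found by the gene name in the deposited tables, and 48 of the 50 were listed, among 19309 genes in all. No row carried the name SPC24 or SKA1, so both were not analysed here.

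Granulosa cells form the layer around the oocyte of an ovarian follicle. They were taken from chickens (Gallus gallus) aged 10 to 15 months, from follicles at the F1 stage, which is nearest to ovulation, and at the earlier F5 stage. Within each follicle the cells were labelled by position, either proximal to the germinal disc, the small disc of cytoplasm around the oocyte nucleus, or distal to it. The 4 groups were F1 proximal, F1 distal, F5 proximal and F5 distal cells, with 1 RNA sequencing library each. No treatment or genotype separates them, and the number of animals pooled in a library is not stated in the labels.

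In a dividing cell, mitosis begins when cyclin A and cyclin B activate the kinase CDK1. Kinetochores then form on the centromeres and bind microtubules, and a checkpoint of BUB and MAD proteins blocks the anaphase-promoting complex until every chromosome is attached. Most transcripts of this machinery are made late in the cell cycle and are scarce in cells that do not divide, so they are widely read as marks of proliferation. In the hen, granulosa cells of growing follicles divide, and cells around the germinal disc have long been described as more proliferative than those farther away in large follicles.

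Library totals were recovered from FPKM ratios and not reported as such. They were 18020270 reads for F1 proximal, 13948790 for F1 distal, 16654793 for F5 proximal and 17351242 for F5 distal cells. Levels are FPKM, fragments scaled to gene length and library total. Folds are ratios of FPKM, with 95% exact (Clopper-Pearson) binomial intervals that cover counting error only. With 1 library a group, no difference between 2 libraries has a replicate check or a p-value. All 13 granulosa markers were above 0 in every library, with FOXL2 at 1593.9 FPKM in F1 proximal, 1390.7 in F1 distal, 1054.8 in F5 proximal and 860.9 in F5 distal cells. The markers were not stable between stages. The limma fit below called 7 of 13 higher in F1 and 4 lower, against 10.4% and 35.8% of all genes. Their summed level was 90491 FPKM in F1 proximal, 120503 in F1 distal, 21972 in F5 proximal and 22738 in F5 distal cells. The leukocyte and erythroid markers found by name were near 0. Summed levels were 0.355 to 2.67 FPKM over 6 of 8 leukocyte genes and 0.0711 to 1.03 FPKM over 3 of 8 erythroid genes. The other markers named in these lists had no single row of that name, so their levels were not examined. In bulk samples like these, fewer dividing cells and less RNA in each dividing cell cannot be told apart.

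Every member had a lower FPKM in F1 than in F5 at both positions, though CCNB2 in proximal cells turned higher in F1 under median-ratio scaling. Of all genes averaging 1 FPKM or more, 72.1% were also lower in F1 in proximal cells and 74.7% in distal cells. The median member stood in F1 proximal cells at 28.4% of its F5 proximal level, with an interquartile range of 20.9% to 38.2%. In F1 distal cells the median member stood at 5.04% of its F5 distal level, with an interquartile range of 2.78% to 11.3%. Under median-ratio scaling the median F1 to F5 ratio was 0.352 in proximal and 0.070 in distal cells. Shares of F5 given per gene are unscaled unless stated, and their counting intervals leave out this shift. The summed level of the 48 members was 542.5 FPKM in F1 proximal, 129.2 in F1 distal, 1365.6 in F5 proximal and 1107.3 FPKM in F5 distal cells. The F1 distal library is therefore the low one, and F1 proximal lies between it and the F5 pair. The counting interval of the unscaled F1 to F5 ratio lay below 100% for 48 of 48 members at each position. The share of all genes with such an interval is not given here, so this count has no background beside it.

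**Figure D1:**
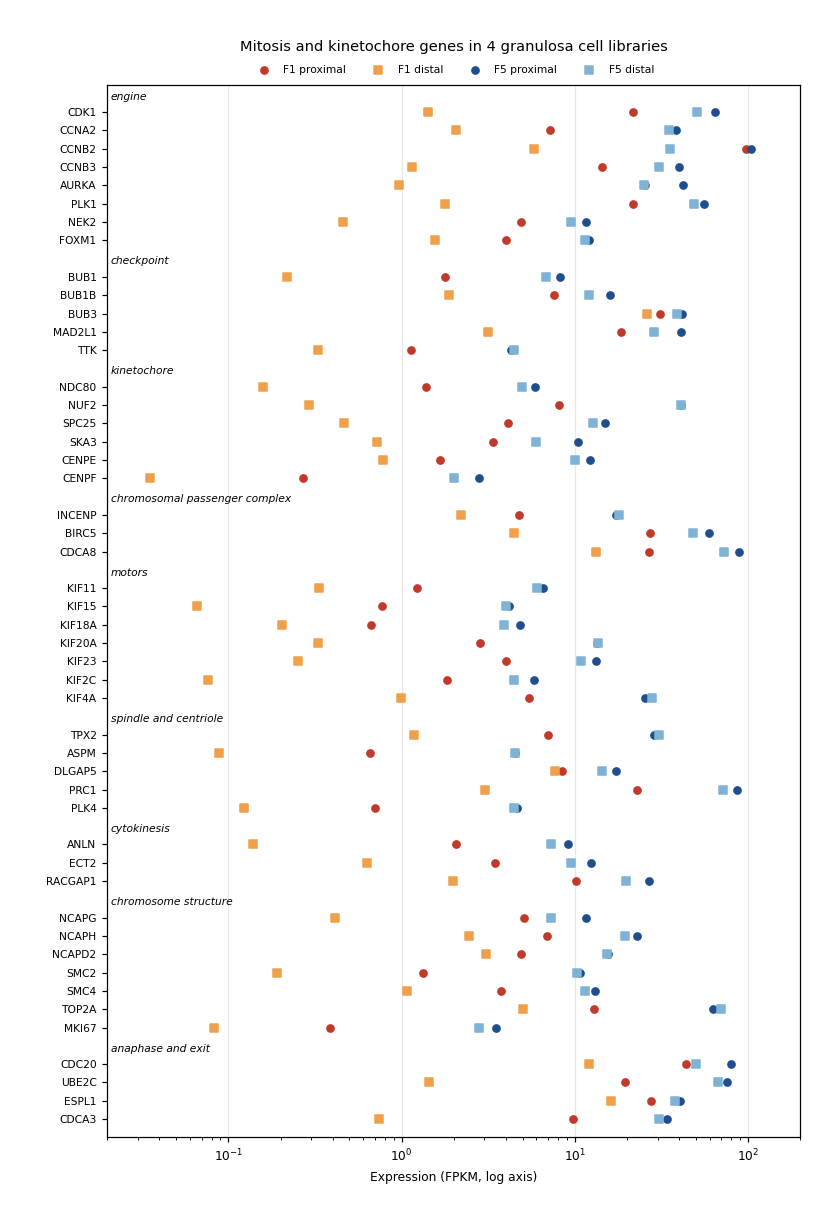
FPKM of the 48 mitosis and kinetochore genes on a log axis, 1 point per library, grouped by role. For nearly every gene F1 distal (orange squares) is leftmost, F1 proximal (red circles) lies between, and the F5 pair (blue) lies to the right, while CCNB2, at 97.7 FPKM in F1 proximal and 35.4 FPKM in F5 distal cells, and AURKA, at 25.4 and 25.1 FPKM, depart from this.

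On the log2(FPKM + 1) scale, where 1 FPKM is added before taking logs, 41 of 48 members lay 2-fold or more below F5 in proximal cells of F1. Over all 11203 genes tested, those averaging 1 FPKM or more, the share was 9.85%. In distal cells 46 of 48 were at least 2-fold lower in F1, against 17.8% of all genes. The median log2 difference of members was -1.57 in proximal and -2.61 in distal cells, beside -0.27 and -0.40 for all genes tested. Because the median of all genes itself lay below 0, libraries were also scaled by median ratios, which brought it to 0.00 at both positions. The members' medians were then -1.30 and -2.34.

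The additive limma fit, with follicle and position together, called 46 of 48 members lower in F1 and 0 higher at an adjusted p of 0.05. Of all genes tested 35.8% were called lower and 10.4% higher. Under median-ratio scaling 40 members were called lower and 0 higher, beside 16.9% of all genes lower and 19.4% higher. The fitted log2 differences of the called members ran from -3.62 to -0.48, with limma adjusted p from 0.00951 to 0.0455. CCNB2 (limma adjusted p = 0.149) and AURKA (limma adjusted p = 0.0792) were not called. In this fit the proximal and distal libraries of a follicle stage stand in for replicates. With only 4 libraries, the residual of a gene is how much its position difference changed between F1 and F5. The p-values are measured against that change, pooled in part over all genes tested. Technical spread may be part of it and cannot be told apart from a true change, since no group has a replicate library. A large change in the position difference thus widens the error of the stage difference. Fitted without the position term, 29 of 48 were called lower, against 23.4% of all genes. In that fit the count was 48 without the F1 proximal library, 35 without F1 distal, 11 without F5 proximal and 10 without F5 distal, and the shares of all genes were 36.7%, 12.9%, 5.06% and 3.06%.

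**Figure D2:**
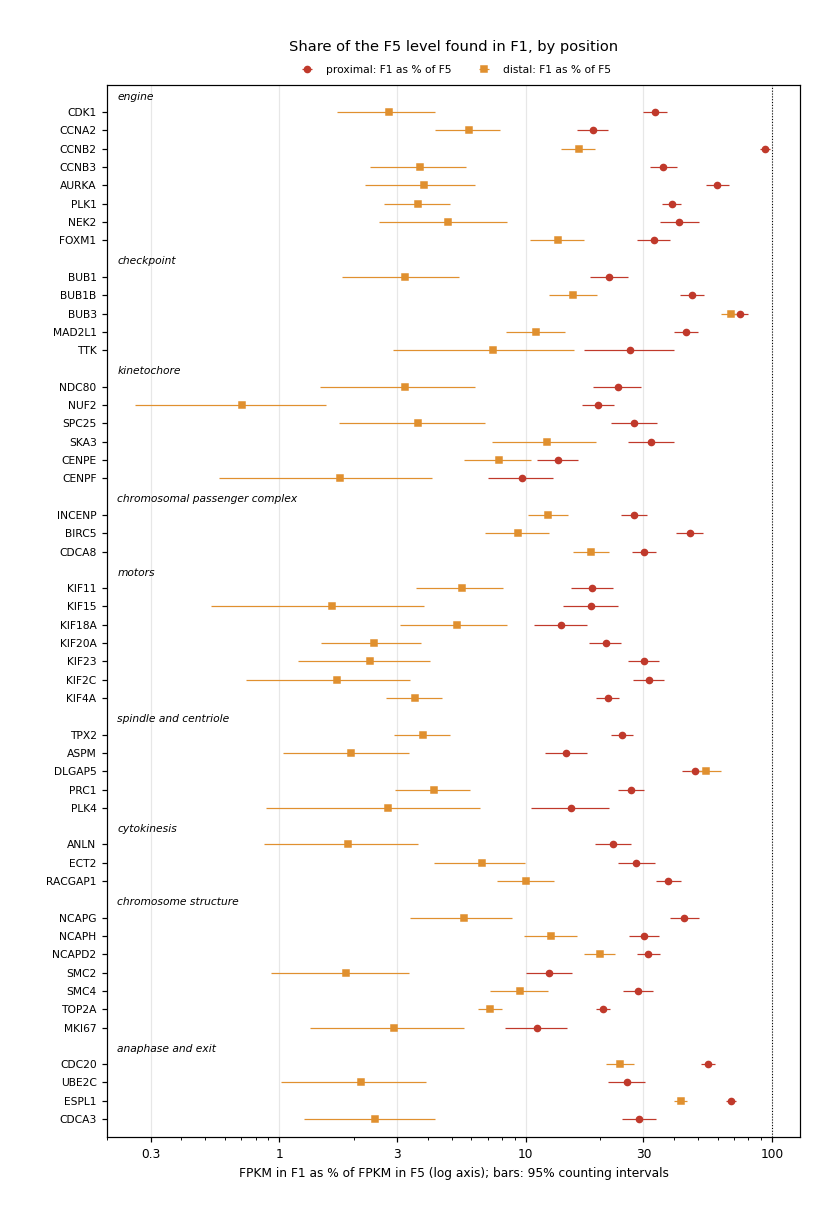
FPKM in F1 as a percentage of FPKM in F5 on a log axis, for proximal (red circles) and distal cells (orange squares), with 95% counting intervals. Distal values centre on 5.04% and proximal values on 28.4%, and the order of the positions is turned for DLGAP5, at 48.7% proximal and 53.8% distal.

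The first group is the engine of mitotic entry. CDK1 (ENSGALG00000003085, chromosome 6, 8142505 to 8170935), the kinase that starts mitosis, stood at 21.5 FPKM in F1 proximal, 1.41 in F1 distal, 64.5 in F5 proximal and 50.8 FPKM in F5 distal cells. That is 33.4% of the F5 level in proximal cells (29.8 to 37.4) and 2.79% in distal cells (1.72 to 4.29). CDK1 fell by 2.98 on the log2 scale in the fit (SE 0.733, limma adjusted p = 0.0394). Its partner CCNA2, a cyclin of S phase and early mitosis, stood at 7.21 FPKM in F1 proximal, 2.06 in F1 distal, 38.6 in F5 proximal and 35.2 FPKM in F5 distal cells. CCNA2 kept less of its proximal level than CDK1, at 18.7% (16.1 to 21.6), and more of its distal level, at 5.85% (4.29 to 7.82). CCNB3, a B-type cyclin, stood at 14.4 FPKM in F1 proximal, 1.15 in F1 distal, 39.8 in F5 proximal and 30.7 FPKM in F5 distal cells. PLK1 (chromosome 14, 6884685 to 6889434), the polo kinase that acts at centrosomes and kinetochores, stood at 21.7 FPKM in F1 proximal, 1.78 in F1 distal, 55.3 in F5 proximal and 48.5 FPKM in F5 distal cells. Its fall of 2.74 on the log2 scale was the one closest to the threshold among the called members (SE 0.724, limma adjusted p = 0.0455). NEK2, a centrosome kinase, was at 42.01% of F5 in proximal and 4.83% in distal cells. FOXM1, a transcription factor that drives many G2 and M phase genes, was at 3.99 FPKM in F1 proximal, 1.55 in F1 distal, 12.1 in F5 proximal and 11.5 FPKM in F5 distal cells.

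CCNB2 (ENSGALG00000004161, chromosome 10, 6313607 to 6321500), the other B-type cyclin listed, departed from the rest. It stood at 97.7 FPKM in F1 proximal, 5.80 in F1 distal, 104.5 in F5 proximal and 35.4 FPKM in F5 distal cells. Proximal libraries of both follicles were thus high and close to each other, and both distal libraries were lower. CCNB2 held 93.5% of its F5 level in proximal cells (89.5 to 97.7), where the next highest member, BUB3, held 74.0%. Under median-ratio scaling the direction turned, and the F1 proximal level was 116% of the F5 proximal one. In distal cells it held 16.4% (14.0 to 19.1). The position difference was already present in F5, at 2.95-fold (2.77 to 3.14), and CCNB2 was the only member at least 2-fold higher there. It came to 16.8-fold in F1 (14.5 to 19.6). CCNB2 ranked 1 of 48 by FPKM in both proximal libraries, 6 in F1 distal and 12 in F5 distal cells. Its FPKM relative to that of CDK1 was 4.54 in F1 proximal, 4.10 in F1 distal, 1.62 in F5 proximal and 0.698 in F5 distal cells. Without CCNB2 the summed level of the other members in F1 was 35.3% of that in F5 for proximal and 11.5% for distal cells. In RefSeq's table for assembly GRCg7b the name CCNB2 is a synonym of CCNB1 on chromosome 10, and no row of the deposited tables was named CCNB1.

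AURKA (chromosome 20, 12364935 to 12370702), as named in the deposited tables, is a kinase of spindle poles. It was chosen for its values here, as the other member not called. AURKA stood at 25.4 FPKM in F1 proximal, 0.967 in F1 distal, 42.4 in F5 proximal and 25.1 FPKM in F5 distal cells. It held 59.9% of its F5 level in proximal cells (53.8 to 66.6) and 3.85% in distal cells (2.23 to 6.22). The level in F1 proximal cells was close to that in F5 distal cells, while F1 distal cells had 17 reads. The RefSeq table held no AURKA by that name and placed AURKB on chromosome 20, so which Aurora kinase the row stands for was not settled.

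Among the genes of the spindle checkpoint, BUB3 (chromosome 6, 31024080 to 31036240), which brings BUB1 and BUB1B to the kinetochore, had the smallest fitted difference. Its levels were 30.9 FPKM in F1 proximal, 26.2 in F1 distal, 41.8 in F5 proximal and 38.7 FPKM in F5 distal cells. The 4 libraries span less than 2-fold, and BUB3 ranked 1 of 48 members in F1 distal cells, against 10 in F5 distal cells. It fell by 0.48 (SE 0.102, limma adjusted p = 0.0292), and under median-ratio scaling its F1 level was 91.7% of F5 in proximal and 93.9% in distal cells. BUB1B, the kinase-like checkpoint protein BUBR1, stood at 7.57 FPKM in F1 proximal, 1.89 in F1 distal, 16.0 in F5 proximal and 12.1 FPKM in F5 distal cells. MAD2L1, which binds and blocks CDC20, stood at 18.4 FPKM in F1 proximal, 3.14 in F1 distal, 41.2 in F5 proximal and 28.5 FPKM in F5 distal cells. BUB1 and TTK, the kinases that recruit and activate the checkpoint, held 21.8% and 26.5% of F5 in proximal cells and 3.22% and 7.38% in distal cells. All 5 checkpoint members were called lower in F1, beside 35.8% of all genes.

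Kinetochore genes were low in F1 and most of all in distal cells. NUF2 (ENSGALG00000003438, chromosome 8, 5439985 to 5450983), a subunit of the NDC80 complex that grips microtubules, had the widest range of the 48. It stood at 8.10 FPKM in F1 proximal, 0.291 in F1 distal, 41.2 in F5 proximal and 41.2 FPKM in F5 distal cells. F1 distal cells had 6 reads of NUF2 against 216 in F1 proximal cells, and 0.705% of the F5 distal level (0.258 to 1.54). The F5 libraries did not differ beyond counting error, at 1.00-fold (0.916 to 1.09). The other subunits of that complex listed were less extreme in distal cells, with NDC80 at 3.24% and SPC25 at 3.66% of F5. SPC25 stood at 4.10 FPKM in F1 proximal, 0.465 in F1 distal, 14.9 in F5 proximal and 12.7 FPKM in F5 distal cells. SKA3, of the complex that steadies microtubule attachment, was at 12.2% of F5 in distal cells.

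CENPE, a kinesin that moves chromosomes to the spindle equator, stood at 1.66 FPKM in F1 proximal, 0.784 in F1 distal, 12.3 in F5 proximal and 10.1 FPKM in F5 distal cells. It was low at both positions of F1, at 13.5% of F5 in proximal (11.1 to 16.4) and 7.77% in distal cells (5.62 to 10.5). Its fall of 2.48 had the smallest adjusted p of the members (SE 0.162, limma adjusted p = 0.00951). CENPF, a large outer kinetochore protein, had the lowest FPKM of the 48 in all 4 libraries, at 0.268 in F1 proximal, 0.0354 in F1 distal, 2.79 in F5 proximal and 2.003 in F5 distal cells. On the log2(FPKM + 1) scale its differences from F5 were -1.58 in proximal and -1.54 in distal cells. Its FPKM ratios were 9.62% and 1.77%, and the scales differ because the added 1 FPKM compresses low values. That also shrinks the change in position difference that sets the error, so small adjusted p of low members depend on it. On this scale the change was 0.32 for CENPE and -0.044 for CENPF. In FPKM their F1 position ratios were 1.74 and 5.44 times their F5 ones. All 6 kinetochore members listed were called lower in F1, beside 35.8% of all genes.

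The chromosomal passenger complex, which corrects faulty attachments, was represented by INCENP, BIRC5 and CDCA8. These 3 were all called lower in F1, beside 35.8% of all genes. BIRC5, also known as survivin, stood at 27.3 FPKM in F1 proximal, 4.48 in F1 distal, 59.1 in F5 proximal and 48.1 FPKM in F5 distal cells. CDCA8, the subunit borealin, stood at 26.7 FPKM in F1 proximal, 13.3 in F1 distal, 88.8 in F5 proximal and 72.2 FPKM in F5 distal cells. INCENP, the scaffold of the complex, was at 4.78 FPKM in F1 proximal, 2.20 in F1 distal, 17.3 in F5 proximal and 17.9 FPKM in F5 distal cells. The distal share of F5 was 18.5% for CDCA8 (15.5 to 21.8), 12.3% for INCENP (10.2 to 14.8) and 9.31% for BIRC5 (6.81 to 12.4). The intervals of INCENP and BIRC5 overlap. In proximal cells BIRC5 held the most, at 46.2%, beside 30.1% for CDCA8 and 27.6% for INCENP. The subunits thus did not keep 1 ratio to each other.

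All 7 kinesin motors were at least 2-fold lower in F1 at both positions, beside 9.85% of all genes in proximal and 17.8% in distal cells. They were also all called lower, beside 35.8% of all genes. KIF23, which bundles microtubules at the midzone, stood at 4.01 FPKM in F1 proximal, 0.251 in F1 distal, 13.3 in F5 proximal and 10.8 FPKM in F5 distal cells. KIF20A, which acts late in cytokinesis, stood at 2.84 FPKM in F1 proximal, 0.328 in F1 distal, 13.5 in F5 proximal and 13.6 FPKM in F5 distal cells. KIF4A, a chromosome-bound kinesin, stood at 5.45 FPKM in F1 proximal, 0.989 in F1 distal, 25.3 in F5 proximal and 27.9 FPKM in F5 distal cells. KIF18A, which dampens chromosome movements, had 0.670 FPKM in F1 proximal, 0.205 in F1 distal, 4.81 in F5 proximal and 3.90 FPKM in F5 distal cells. For these motors F1 distal was the lowest library, and the F5 pair did not separate as the F1 pair did. KIF11, KIF15 and KIF2C held 18.6%, 18.4% and 31.5% of F5 in proximal cells and 5.50%, 1.64% and 1.71% in distal cells. KIF15 and KIF2C rested on 5 and 8 reads in F1 distal cells. In the RefSeq table KIF4A is a synonym of KIF4B on the same chromosome.

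Among genes of the spindle and centriole, PRC1 (chromosome 10, 19561549 to 19563276), which crosslinks midzone microtubules, stood at 23.0 FPKM in F1 proximal, 3.04 in F1 distal, 86.0 in F5 proximal and 71.5 FPKM in F5 distal cells. TPX2, an activator of Aurora A, stood at 7.01 FPKM in F1 proximal, 1.18 in F1 distal, 28.5 in F5 proximal and 30.8 FPKM in F5 distal cells. ASPM, a spindle pole protein, and PLK4, which starts centriole duplication, held 14.6% and 15.3% of F5 in proximal cells, and 1.95% and 2.75% in distal cells.

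DLGAP5 (ENSGALG00000012165, chromosome 5, 56134600 to 56152967), a spindle assembly factor, departed from these. It stood at 8.44 FPKM in F1 proximal, 7.68 in F1 distal, 17.3 in F5 proximal and 14.3 FPKM in F5 distal cells. Both F1 libraries were low, with no gap between positions, and the proximal to distal ratio of DLGAP5 in F1 was 1.10 (0.938 to 1.29). It fell by 0.89 between the stages (SE 0.123, limma adjusted p = 0.0153). All 5 members of the group were called lower in F1, beside 35.8% of all genes.

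The 3 cytokinesis genes were called lower in F1, beside 35.8% of all genes. ANLN, which organises the contractile ring, stood at 2.07 FPKM in F1 proximal, 0.139 in F1 distal, 9.17 in F5 proximal and 7.28 FPKM in F5 distal cells. ECT2, which activates RhoA at the division plane, was at 3.47 FPKM in F1 proximal, 0.630 in F1 distal, 12.3 in F5 proximal and 9.50 FPKM in F5 distal cells. RACGAP1, its binding partner, was at 10.2 FPKM in F1 proximal, 1.97 in F1 distal, 26.9 in F5 proximal and 19.6 FPKM in F5 distal cells.

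All 7 genes of chromosome structure were at least 2-fold lower in F1 at both positions, beside 9.85% of all genes in proximal and 17.8% in distal cells. TOP2A (chromosome 27, 4417748 to 4434189), which untangles sister DNA, stood at 12.9 FPKM in F1 proximal, 5.04 in F1 distal, 62.9 in F5 proximal and 70.1 FPKM in F5 distal cells. MKI67, which coats mitotic chromosomes and is the antigen of the Ki-67 stain, stood at 0.389 FPKM in F1 proximal, 0.0821 in F1 distal, 3.52 in F5 proximal and 2.80 FPKM in F5 distal cells. It was thus among the members that kept least in proximal cells, at 11.1% of F5 (8.20 to 14.6). SMC2, a core subunit of both condensins, was close to it, at 12.4% in proximal and 1.87% in distal cells. Its partner SMC4 held 28.6% and 9.46%. NCAPD2, the condensin I subunit that kept most of its F5 level in distal cells, was at 4.86 FPKM in F1 proximal, 3.05 in F1 distal, 15.5 in F5 proximal and 15.2 FPKM in F5 distal cells. NCAPG was at 5.07 FPKM in F1 proximal, 0.411 in F1 distal, 11.5 in F5 proximal and 7.33 FPKM in F5 distal cells. NCAPH was at 6.88 FPKM in F1 proximal, 2.45 in F1 distal, 22.7 in F5 proximal and 19.4 FPKM in F5 distal cells. These condensin subunits thus differed in how low they lay in F1 distal cells.

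Genes of anaphase and mitotic exit split in 2 ways. CDC20 (chromosome 8, 18577132 to 18582553), the activator of the anaphase-promoting complex, stood at 43.9 FPKM in F1 proximal, 11.99 in F1 distal, 79.9 in F5 proximal and 49.8 FPKM in F5 distal cells. ESPL1, the protease separase, stood at 27.6 FPKM in F1 proximal, 16.1 in F1 distal, 40.7 in F5 proximal and 37.9 FPKM in F5 distal cells. These genes kept 24.1% and 42.6% of their F5 level in distal cells. UBE2C, the ubiquitin-conjugating enzyme of the same complex, stood at 19.4 FPKM in F1 proximal, 1.44 in F1 distal, 75.6 in F5 proximal and 67.5 FPKM in F5 distal cells. CDCA3, which triggers entry into mitosis, was at 9.75 FPKM in F1 proximal, 0.745 in F1 distal, 33.8 in F5 proximal and 30.5 FPKM in F5 distal cells. UBE2C and CDCA3 kept 2.13% and 2.44% in distal cells. All 4 were called lower in F1, beside 35.8% of all genes.

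**Figure D3:**
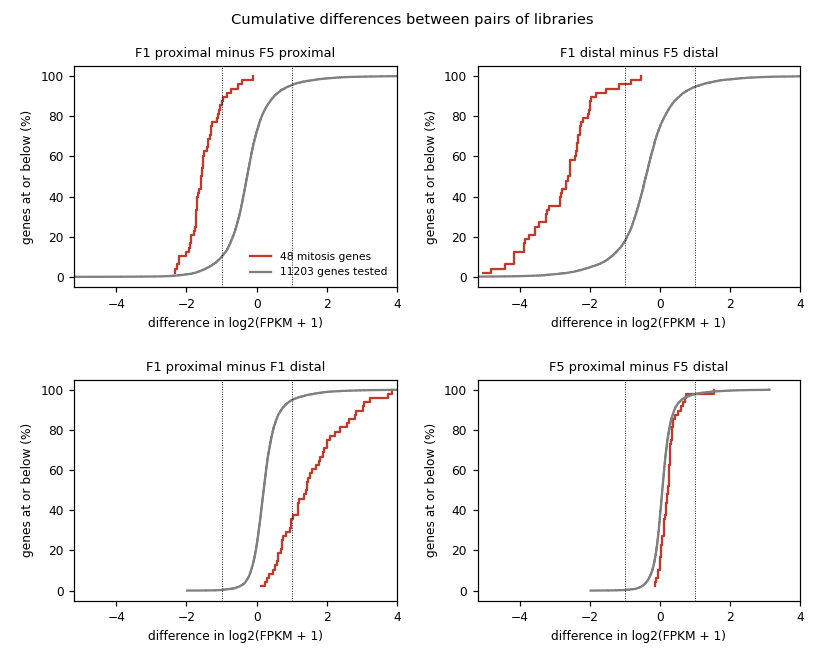
Cumulative share of genes by difference in log2(FPKM + 1) for 4 pairs of libraries, for the 48 mitosis genes (red) and all 11203 genes tested (grey), with dotted lines at 2-fold; a few tested genes lie beyond the axis limits. The red curve is shifted most for F1 distal minus F5 distal, with a median of -2.61, and lies close to the grey one for F5 proximal minus F5 distal, with medians of 0.23 and 0.07.

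Position was compared within each follicle. In F1, all 48 members had more FPKM in proximal than in distal cells, or 46 under median-ratio scaling, with BUB3 and DLGAP5 turned. Of all genes tested 77.5% had more FPKM in F1 proximal cells. The FPKM ratio of the members had a median of 5.91-fold, an interquartile range of 3.46 to 11.8 and a maximum of 27.9-fold for NUF2. Under median-ratio scaling the median was 4.88-fold. Counting intervals of the unscaled ratios lay above 1 for 47 of 48, with DLGAP5 as the exception. By the size rule, which is set on log2(FPKM + 1), 31 of 48 were at least 2-fold higher in F1 proximal cells, against 5.18% of all genes. On the FPKM ratios themselves 44 of 48 were. The scaled ratios of BUB3 and DLGAP5 were 0.972 and 0.907. In all, 14 members were more than 10-fold higher, among them AURKA at 26.2-fold (16.2 to 45.3), KIF2C at 24.1-fold (12.04 to 56.4) and CDK1 at 15.2-fold (9.83 to 24.9). In F1 distal cells 9 members had fewer than 10 reads and 25 were below 1 FPKM, so these folds have wide intervals. The counts of 14, 44 and 47 have no share of all genes beside them here.

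In F5, the median member was 1.20-fold higher in proximal cells, with an interquartile range of 1.05 to 1.28. Under median-ratio scaling the median was 1.10-fold. By the size rule 1 of 48, CCNB2, was at least 2-fold higher, against 2.18% of all genes. In FPKM 40 members were higher and 8 lower in F5 proximal cells, beside 63.0% and 36.9% of all genes tested. Under median-ratio scaling 33 members were higher and 15 lower, so the direction of many small differences is not fixed. After CCNB2 the next were SKA3 at 1.77-fold (1.48 to 2.11), AURKA at 1.69-fold (1.52 to 1.88), CDC20 at 1.60-fold (1.498 to 1.71) and NCAPG at 1.57-fold (1.39 to 1.78). TOP2A, KIF4A and TPX2 were lower in F5 proximal cells, at 0.896-fold (0.863 to 0.931), 0.907-fold (0.852 to 0.965) and 0.926-fold (0.868 to 0.987). In the authors' deposited table, 41 of 48 members had a log2 fold change above 1 for F1 proximal against distal cells, and 1 for F5. The share of all genes above 1 on the authors' measure is not given here, so these counts have no background beside them. The authors' deposited table gave CCNB2 3.84 in F1 and 1.47 in F5, and gave DLGAP5 -0.10 and BUB3 -0.00079 in F1.

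**Figure D4:**
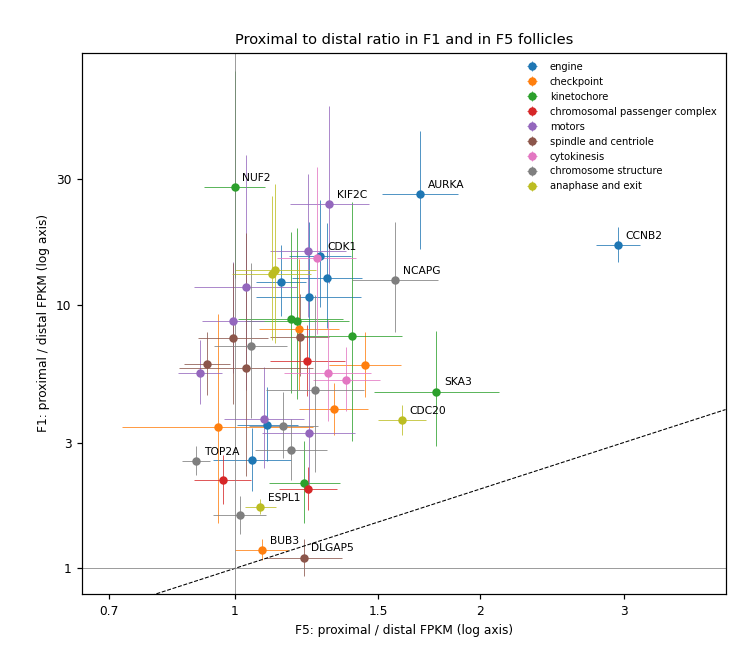
Ratio of proximal to distal FPKM in F1 (vertical, log axis) against that in F5 (horizontal, log axis), coloured by role, with 95% counting intervals and a dashed line of equal ratios. All but DLGAP5 lie above the dashed line, CCNB2 lies far to the right at 2.95-fold in F5, and NUF2 and AURKA lie highest in F1 at 27.9-fold and 26.2-fold.

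Set as a ratio of ratios, the F1 position fold was larger than the F5 position fold by a median of 5.49 times. On the log2(FPKM + 1) scale 27 of 48 members had a position difference at least 2-fold larger in F1 than in F5, against 3.34% of all genes. The ratio of ratios was 27.9 for NUF2 (12.3 to 63.0), 18.4 for KIF2C (9.05 to 37.6), 15.5 for AURKA (9.49 to 25.5) and 11.98 for CDK1 (7.66 to 18.7). It was 5.71 for CCNB2 (4.87 to 6.71). BUB3, at 1.09 (0.970 to 1.23), and DLGAP5, at 0.905 (0.749 to 1.09), were the members whose interval included 1. This difference could not be tested across libraries, since with 1 library a group it takes up the last residual degree of freedom. The limma position term, over both follicles, called 0 of 48 members and 0.0% of all genes, with a smallest member adjusted p of 0.256. The error of that term is also measured by the change in position difference between F1 and F5. A position difference seen in F1 alone thus raises the term and its error alike, and could hardly be called whatever its size. The count of 0 therefore does not speak to position within F1. Unadjusted, the limma p of the position term lay below 0.05 for 10 of 48 members and 13.7% of all genes. Limma with voom weights also called 0 members.

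The size of the contrast depends on the scale. As a difference in FPKM and not a ratio, proximal cells exceeded distal cells by 413.3 FPKM in F1 and 258.4 FPKM in F5, summed over the 48 members. The median gap was 4.09 FPKM in F1 and 2.19 FPKM in F5. Among genes chosen after their values were seen, the gap was 91.9 FPKM in F1 and 69.1 in F5 for CCNB2, 31.9 and 30.03 for CDC20, and 24.4 and 17.3 for AURKA. It was 22.8 FPKM in F1 and 10.97 in F5 for BIRC5, 19.9 and 6.79 for PLK1, and 7.81 and -0.020 for NUF2. The genes thus varied in how much larger the gap was in F1. The gap was larger in F1 for 40 of 48 members and for 64.1% of all genes tested. CDCA8, with 13.4 FPKM in F1 and 16.7 in F5, and SKA3, with 2.66 and 4.55 FPKM, were among the 8 with a smaller gap in F1. KIF4A and TOP2A had gaps of 4.46 and 7.86 FPKM in F1 and of -2.60 and -7.26 FPKM in F5.

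**Figure D5:**
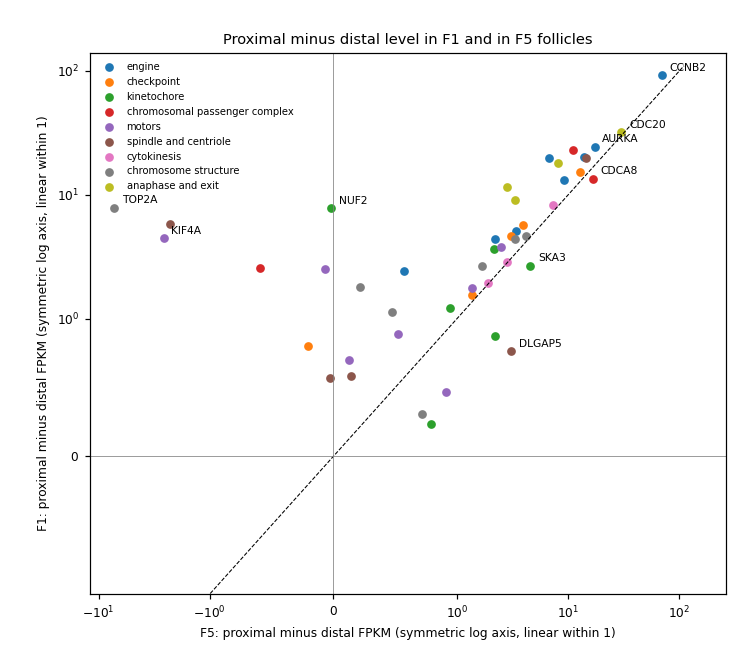
Proximal minus distal FPKM in F1 (vertical) against that in F5 (horizontal), on symmetric log axes that are linear within 1, with a dashed line of equal gaps and colours by role. CDC20 lies near the dashed line, TOP2A and KIF4A lie left of 0, and SKA3, CDCA8 and DLGAP5 lie below the line.

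Across the 48 genes, which share these 4 libraries and are not independent replicates, the log2 position difference in F1 was set against that in F5. Pearson's r was 0.48 and Spearman's rho 0.38, beside 0.47 and 0.36 over all genes tested. Without CCNB2 the members gave 0.34 and 0.34.

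Germ cell transcripts moved with position. Of 19 germ cell markers 15 were listed, and 2 egg coat genes are given apart. ZPD was abundant in every library, at 5452 FPKM in F1 proximal, 6174 in F1 distal, 1793 in F5 proximal and 1619 FPKM in F5 distal cells. ZP2 was at 8.62 FPKM in F1 proximal, 0.224 in F1 distal, 28.8 in F5 proximal and 2.68 FPKM in F5 distal cells. The other 13 summed to 17.5 FPKM in F1 proximal, 1.63 in F1 distal, 29.6 in F5 proximal and 9.53 FPKM in F5 distal cells, and 13, 8, 12 and 10 of them were above 0. DAZL, which binds RNA in germ cells, had 102 reads in F1 proximal, 0 in F1 distal, 128 in F5 proximal and 3 in F5 distal cells. BMP15, an oocyte growth factor, had 64, 2, 208 and 5 reads in the same order. The marker sum was 10.7-fold higher in proximal than distal cells of F1 and 3.11-fold in F5. The median mitosis gene was 5.91-fold higher in F1 and 1.20-fold in F5. The sum in F5 distal cells was mostly TDRKH, at 5.43 FPKM. Over the 8 markers tested, ZP2 and ZPD among them, the median log2 position difference was 1.68 in F1 and 1.47 in F5. That of the mitosis genes was 1.41 and 0.23. The size rule was met by 6 of these 8 markers for F1 and by 5 for F5, against 5.18% and 2.18% of all genes. The part of germ cell RNA in the levels of mitosis genes was not tested. Of the 9 endothelial markers listed, VWF and ESAM had 0 reads in both F1 libraries and KDR had 2 to 4 reads in each library. EMCN, another marker of vessels, was at 3.67 FPKM in F1 proximal, 0.116 in F1 distal, 10.6 in F5 proximal and 0.986 FPKM in F5 distal cells. Summed over the list, dominated by CLDN5 and EGFL7, the endothelial level was 173.6, 158.2, 98.5 and 61.5 FPKM in that order. The 10 theca and stroma markers listed summed to 8.38 to 19.0 FPKM per library, with CYP19A1 and LUM at 0 in both F1 libraries. Their part in the result was not tested.

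Other genes of mitosis, from a list of 118 of which 88 were found, were described by the same measures. Of 83 tested, 63 were called lower in F1 by limma and 0 higher, against 35.8% and 10.4% of all genes. The median log2 difference from F5 was -0.99 in proximal and -1.52 in distal cells. In F1, 23 of 83 passed 2-fold higher in proximal cells, against 5.18% of all genes, with a median position difference of 0.60. In F5 0 of 83 did, against 2.18% of all genes, with a median of 0.17. CKS1B, a subunit that binds CDK1, stood at 192.6 FPKM in F1 proximal, 30.7 in F1 distal, 404.1 in F5 proximal and 290.1 FPKM in F5 distal cells. GTSE1, a microtubule-binding protein of G2 and M phase, was at 6.04 FPKM in F1 proximal, 0.0849 in F1 distal, 12.5 in F5 proximal and 7.73 FPKM in F5 distal cells. CDC27, of the anaphase-promoting complex, was at 22.7 FPKM in F1 proximal, 21.8 in F1 distal, 27.6 in F5 proximal and 26.4 FPKM in F5 distal cells, and was not called (limma adjusted p = 0.1004). RAD21, of cohesin, was at 23.6 FPKM in F1 proximal, 16.0 in F1 distal, 39.5 in F5 proximal and 37.4 FPKM in F5 distal cells. These 4 genes were chosen after their values were seen.

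Of 25 named regulators of mitotic transcription, 22 were found and 21 tested. Limma called 15 of the 21 lower in F1 and 0 higher, against 35.8% and 10.4% of all genes, with medians of -0.62 in proximal and -0.79 in distal cells. MYBL2, which joins the complex that switches on mitotic genes, stood at 6.14 FPKM in F1 proximal, 2.31 in F1 distal, 10.00 in F5 proximal and 7.53 FPKM in F5 distal cells. E2F1, an activator of S phase genes, stood at 15.4 FPKM in F1 proximal, 3.83 in F1 distal, 34.9 in F5 proximal and 23.7 FPKM in F5 distal cells. E2F4, a repressor in resting cells, was at 12.4, 9.94, 13.1 and 12.8 FPKM in the same order. These 3 were chosen after their values were seen.

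DNA replication genes, the nearest set in the cell cycle, were listed for 55 of 61 names. Limma called 47 of 55 lower in F1 and 1 higher, against 35.8% and 10.4% of all genes. Their median log2 difference from F5 was -1.03 in proximal and -1.60 in distal cells, beside -1.57 and -2.61 for the mitosis genes. The position difference had a median of 0.81 in F1 and 0.20 in F5, beside 1.41 and 0.23 for the mitosis genes. Whether the sets differ was not tested.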

How the data were processed

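RNA was sequenced from poly-A selected transcripts, per the labels' protocols, in 1 library per group. The deposited tables held FPKM computed by the authors, with TopHat2 2.0.12 and HTSeq 0.6.1 named in the submitters' processing notes. The authors also deposited proximal to distal log2 fold changes, per the file headers. The sources used here name no genome build, and coordinates are as deposited. Of 19311 rows 2 held no gene.

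FPKM ratios between libraries gave the library totals and, within a tolerance of 1e-08, whole reads for 16894 of 16894 genes above 0. On simulated libraries 94.3% of 16563 genes returned their exact reads. Recovered reads served for depth, intervals and the voom alternative. The interval of a ratio of ratios is a normal approximation on the log scale.

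Tests used limma 3.58.1 in R 4.3.3 on log2(FPKM + 1) with follicle and position as additive terms, empirical Bayes with a mean-variance trend, and two-sided p-values with Benjamini-Hochberg adjustment over the 11203 genes averaging at least 1 FPKM. The fit leaves 1 residual degree of freedom. Simulated libraries had a biological coefficient of variation of 0.15 and no difference between positions in either follicle. In them the fit called 73 of 100 genes lowered 2-fold and 96 of 100 lowered 4-fold. It made 61 false calls among the rest of 11203 genes, in the same set as those 73 and 96 true ones. The false share was thus larger than the threshold of 0.05 aims for. In a second set, with a coefficient of 0.05, it called 91 and 98 of 100, with 66 false calls. Most members differed more by position in F1 than in F5, which the simulation left out. Its counts therefore do not give the error rates of the fit for the members. All 48 listed members passed the filter on low values.

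Within each role the genes printed with all 4 values are the 3 with the highest mean (all of a group of 4 or fewer), and those with the largest and smallest change between stages in distal cells or between positions in F1, with CCNB2 added. CCNA2, CCNB3 and AURKA are also printed with all 4 values, and the remaining members by their shares of F5, to account for every member. The members and lists were chosen with earlier results of these data known. Of the 48 names, 43 were symbols and 2 were synonyms in the RefSeq table, and 3 (AURKA, CDCA8 and UBE2C) were not matched. Alternatives were other pseudocounts, filters and scaling, voom weights, fits with fewer terms and libraries left out.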

Additional observations from a re-analysis of the deposited data

Results flagged for a closer look

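For 8 members the position difference had opposite signs in F1 and F5, being above 0 in F1 and below 0 in F5, with 1 library behind each value, and the difference was not tested. All 48 members were above 0 in F1. These 8 are therefore the 16.7% of members below 0 in F5, beside 36.9% of all genes tested. Under median-ratio scaling 15 members were lower in F5 proximal than in F5 distal cells, so the set depends on the scaling. On the log2(FPKM + 1) scale the F1 difference minus the F5 difference was 2.82 for NUF2, 1.99 for TPX2, 1.83 for KIF4A, 1.54 for KIF20A and 1.36 for TOP2A. It was 0.90 for INCENP, 0.74 for TTK and 0.61 for ASPM. The F5 differences were small, from -0.16 for TOP2A to -0.00068 for NUF2, and the counting interval of the F5 ratio lay below 1 for 3 of the 8, namely TOP2A, KIF4A and TPX2.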

How the results depend on the processing

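All called members were lower in F1 under every alternative run, with 0 called higher. The count called by follicle was 33 to 47 of 48 with other pseudocounts, no filter, other scaling or voom weights. The share of all genes called lower in these settings was 16.9% to 42.2%. With a minimum mean of 5 FPKM the count was 34 of 36, against 39.5% of all genes. Without the position term the count was 29 of 48, against 23.4%. It ranged from 10 to 48 when 1 library was also left out of that fit (10 without F5 distal, 11 without F5 proximal). The additive fit has no residual degree of freedom once a library is left out. The position term called 0 members in each of its fits. It called 1.375% of all genes with a pseudocount of 5 and 0% in its other fits. Its unadjusted limma p lay below 0.05 for 1 of 48 members without the follicle term and for 27 of 48 with a pseudocount of 5. Those counts have no share of all genes beside them here. With a pseudocount of 5, 24 members were at least 2-fold lower in F1 proximal cells, against 4.13% of all genes. At that pseudocount 13 were at least 2-fold higher in F1 proximal than distal cells, against 1.32%.

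Medians moved with the pseudocount, which by construction compresses low values. With 0.1 and with 5 they were -1.79 and -0.995 for the F1 to F5 difference of proximal cells, -3.98 and -1.49 for that of distal cells, 2.31 and 0.65 for position in F1, and 2.003 and 0.50 for F1 position minus F5 position. Under median-ratio scaling the first 2 medians were -1.30 and -2.34, and the F5 position median was 0.12. No median changed sign. No paired analysis was possible because replicate numbers pair nothing with 1 library a group, although the additive fit blocks follicle by position. Depth limits the folds of the 9 members with under 10 reads in F1 distal cells.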
